A study of Mus musculus with 9 samples.

Results

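The 10 genes described here bind, store or make fatty acids, and they were followed through the cell classes of a mouse liver single-cell matrix labelled CluKO. The genes are Fabp1, Fabp4, Fabp5, Lpl, Plin2, Scd1, Scd2, Fasn, Acaca and Acly. They were chosen by name, as 10 of the 53713 rows of the gene table, and all 10 were found among the 23380 symbols with at least 1 count. Cells were placed in classes by their counts of marker genes, none of which is one of the 10.

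Livers of C57BL/6J mice 6 to 8 weeks old were dissociated, pooled and barcoded cell by cell on the Singleron GEXSCOPE microwell platform, which tags polyadenylated transcripts with a unique molecular identifier (UMI) before PCR. The group labelled CluKO received recombinant human clusterin while carbon tetrachloride (CCl4), a toxin that scars the liver, was injected, over a period that the labels leave out. The label is carried by 6 samples while the design text speaks of 3 mice, and their cells share 1 matrix with no sample name in the barcodes. Wild-type mice injected with CCl4 over 0, 2 or 4 weeks gave 1 sample each, and their matrices, whose rows the files do not pair with gene names, were not used here. The matrix labelled CluKO is therefore 1 pooled sample, no test across mice was possible, and every interval below is a 95% interval that covers counting error only. All groups named below are classes of cells within that matrix, so no value compares CluKO with wild type.

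Fatty acids are carried inside cells by fatty acid binding proteins: FABP1 is the abundant liver form, FABP4 the form of adipocytes, capillaries and macrophages, and FABP5 a widely used form. Lipoprotein lipase (LPL) releases fatty acids from circulating triglyceride, and perilipin 2 (PLIN2) coats the droplets in which cells store lipid. New fatty acids are built from citrate by ATP citrate lyase (ACLY), acetyl-CoA carboxylase (ACACA) and fatty acid synthase (FASN), and the stearoyl-CoA desaturases SCD1 and SCD2 put the first double bond into them.

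On GRCm38, Fabp1 lies at chr6:71199827-71205023 on the plus strand and Plin2 at chr4:86648386-86670060 on the minus strand. Fabp4 (chr3:10204088-10208576, minus) and Fabp5 (chr3:10012548-10016607, plus) are neighbours on chromosome 3. Scd1 (chr19:44394455-44407879, minus) and Scd2 (chr19:44293674-44306864, plus) are neighbours on chromosome 19. Lpl lies at chr8:68880491-68907448 on the plus strand. Fasn (chr11:120805846-120824547, minus), Acaca (chr11:84129672-84401651, plus) and Acly (chr11:100476353-100528000, minus) share chromosome 11. Overlapping genes held few UMIs: Gm11437 within Acaca had 6, Mir7116 within Acly 1 and Mir5114 within Scd2 0. How reads that match several places were counted was not given in the sources used here, so reads shared by the similar pairs Scd1 and Scd2, or Fabp4 and Fabp5, could have been split or lost.

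The 250 bases before the start of 3 of these genes are printed because the genes stand for the hepatocyte, droplet and synthesis patterns described below. They come from RefSeq on GRCm38.p6, whose starts can differ from the gene limits above, and the end of the Fabp1 window lies within the gene as given there. They are printed 5′ to 3′ on the gene's own strand, at chr6:71199629-71199878 for Fabp1, chr4:86670060-86670309 for Plin2 and chr11:120824548-120824797 for Fasn. Capitals mark AGGTCA, part of elements that bind nuclear receptors, TATAAA and CCAAT, each on either strand. On the other strand AGGTCA is printed as TGACCT, and CCAAT as ATTGG.
Fabp1: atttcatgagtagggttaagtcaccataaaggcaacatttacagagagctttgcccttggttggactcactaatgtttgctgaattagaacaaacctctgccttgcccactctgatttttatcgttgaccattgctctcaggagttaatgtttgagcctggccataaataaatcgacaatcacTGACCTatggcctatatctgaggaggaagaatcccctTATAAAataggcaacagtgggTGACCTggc
Plin2: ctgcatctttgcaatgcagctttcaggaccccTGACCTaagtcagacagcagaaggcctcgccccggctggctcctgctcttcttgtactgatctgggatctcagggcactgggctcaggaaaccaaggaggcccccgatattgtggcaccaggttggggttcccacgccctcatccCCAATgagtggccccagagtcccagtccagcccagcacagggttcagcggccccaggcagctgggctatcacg
Fasn: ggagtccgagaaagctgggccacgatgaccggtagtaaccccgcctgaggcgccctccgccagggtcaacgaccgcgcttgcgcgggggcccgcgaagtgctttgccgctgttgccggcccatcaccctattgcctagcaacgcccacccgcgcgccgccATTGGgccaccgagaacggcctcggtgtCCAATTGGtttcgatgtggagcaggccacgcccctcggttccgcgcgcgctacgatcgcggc

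Promoter sequences were found for 5 of the 10 genes, and 6 motifs were searched on both strands. Fabp1 held AGGTCA at 67 and at 9 bases before its start and TATAAA at 30 bases. Plin2 held AGGTCA at 218 bases and CCAAT at 73. Fasn held CCAAT at 90, at 62 and, overlapping it on the other strand, at 59 bases. Acly held AGGTCA at 40 bases, and the Acaca window held none of the 6. That window (chr11:84195188-84195437) precedes a RefSeq start inside the gene as annotated above. Of 32851 mouse promoters of the same length, 14.0% held AGGTCA, 33.8% CCAAT and 12.4% TATAAA. The other motifs, CACGTG (in 6.02%), TCACNCCAC (in 1.05%) and TGANTCA (in 6.75%), were in none of the 5 windows.

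The matrix held 4694 cells and 28912707 UMIs. Over all 4694 cells the range was 2371 to 40710 UMIs per cell. After cells under 200 genes or over 20% mitochondrial counts were left out, 4616 cells remained, with a median of 4857 UMIs. A class needed at least 3 distinct markers and a minimum of marker UMIs; 4279 cells (92.7%) passed 1 gate, 209 none, and 128 that passed several were left out as possible doublets. Class names rest on these marker UMIs alone and are to be read as "hepatocyte-like" and so on. Clu, the gene named by the label, was counted in these cells, at 12754 CPM in hepatocytes gated on it and at 1532 CPM in mesothelial cells, so the label could not be checked by its loss. Levels are given as CPM, the UMIs of a gene per 1000000 UMIs summed over the cells of a class. Levels are compared between classes for 1 gene at a time, not between genes.

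The UMIs of the carriers, Lpl and Plin2 were concentrated in few classes. All hepatocytes held 86.2% of the Fabp1 UMIs. All macrophages held 94.7% of Lpl, 88.1% of Fabp4, 86.8% of Fabp5 and 74.1% of Plin2, of which hepatocytes held 9.57%. Macrophages held 37.8% and hepatocytes 43.4% of Scd1. The synthesis genes were spread more widely: macrophages held 51.7% of Scd2, 46.5% of Acly, 43.9% of Acaca and 28.5% of Fasn, and mesothelial cells held 22.2% of Scd2 and 26.1% of Fasn. Acly and Acaca stood in all macrophages close to their level in all kept cells, at 81.1 against 73.3 CPM and 8.12 against 7.77 CPM. Over the 22 classes of at least 25 cells, the highest level was 782 times the lowest for Fabp4, 580 for Lpl, 189 for Fabp5, 152 for Scd1, 120 for Fabp1, 96.0 for Plin2 and 7.43 for Acly. The lowest levels rest on few UMIs, such as 3 of Fabp4 in plasma cells and 1 of Lpl in dendritic cells, and lie at or under the background given below, so these folds only show the scale.

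**Figure D1:**
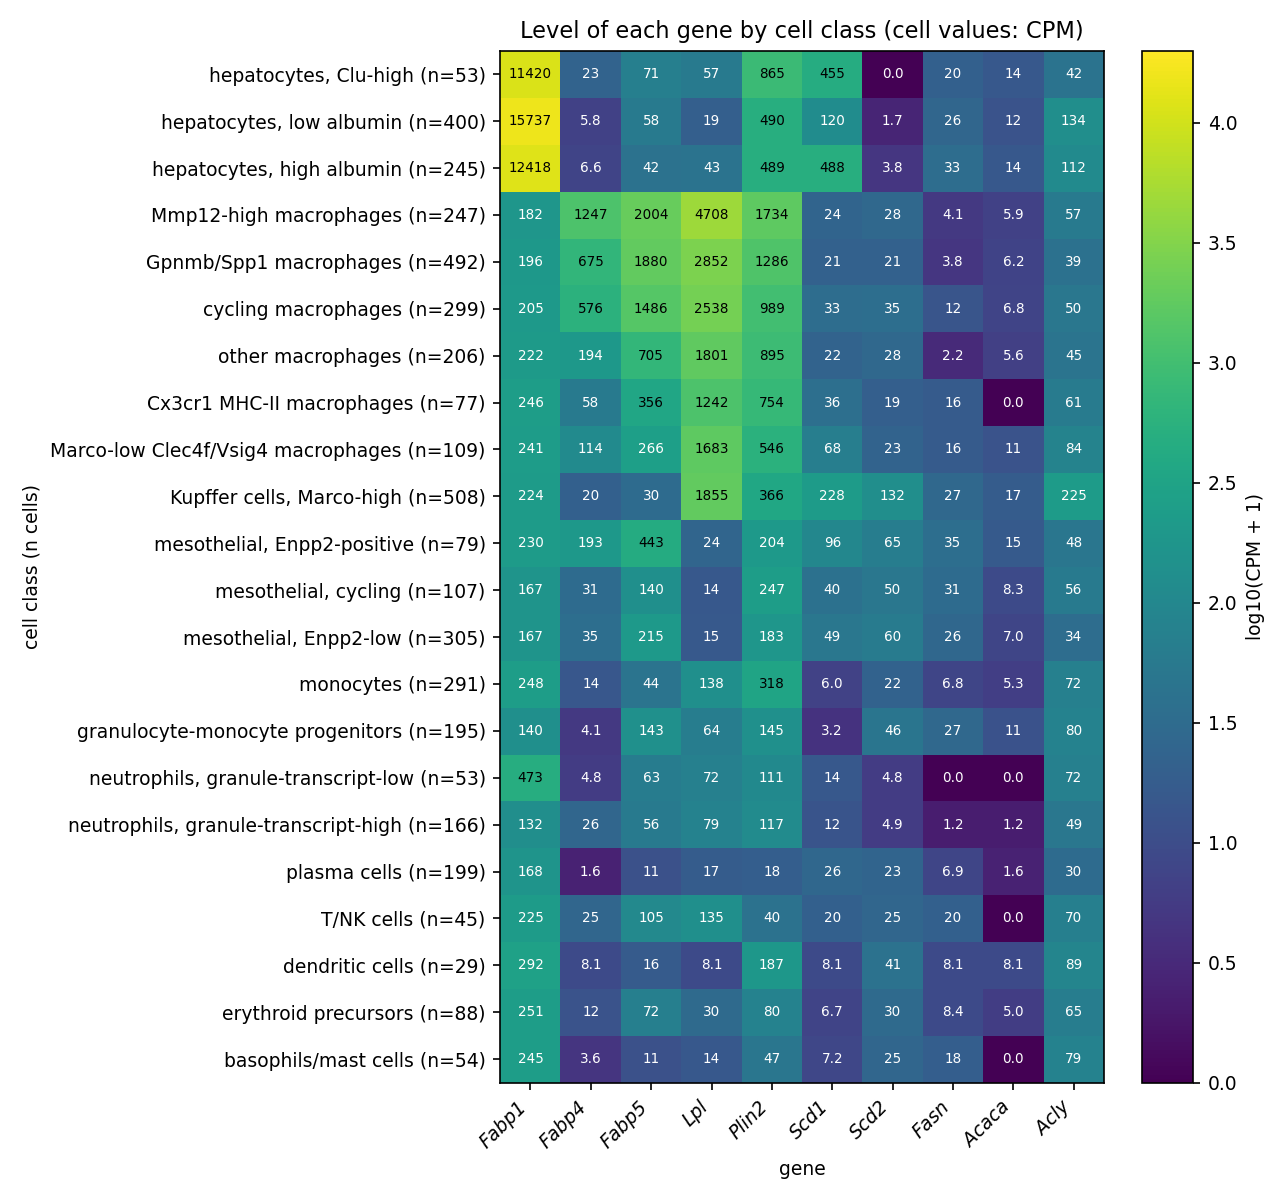
Level of each gene in 22 cell classes of the matrix labelled CluKO; rows are classes with their number of cells, columns genes, the number in a tile is the CPM and its colour log10(CPM + 1). Fabp1 stands out in the 3 hepatocyte classes, Fabp4, Fabp5, Lpl and Plin2 in Mmp12-high and Gpnmb/Spp1 macrophages, and Scd2 and Acly in Kupffer cells at 132 and 225 CPM.

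Free RNA can give UMIs to cells that do not express a gene, so plasma cells, basophils or mast cells and erythroid precursors were pooled as a measure of it (341 cells, median 6879 UMIs). In them Fabp1 stood at 193.6 CPM with a UMI in 55.7% of cells. The others were low: Acly 42.8 CPM, Plin2 34.4 CPM, Scd2 25.0 CPM, Fabp5 23.9 CPM, Scd1 19.9 CPM, Lpl 19.6 CPM, Fasn 8.34 CPM, Fabp4 3.99 CPM and Acaca 2.18 CPM. Values at or under these levels are read below as background, except for Scd1, Scd2, Fabp5, Plin2 and Acly, for which the pool is not a floor. Within it, Scd1 stood at 26.0 CPM in plasma cells, 6.69 CPM in erythroid precursors and 7.21 CPM in basophils or mast cells. In the same order Fabp5 stood at 10.6, 71.9 and 10.8 CPM. Plin2 stood at 18.1, 80.2 and 46.9 CPM, and Acly at 30.3, 65.2 and 79.3 CPM. Scd2 stood at 2.24 CPM in all hepatocytes and 4.86 CPM in all neutrophils, under its level in the pool.

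Fabp1, the first of the carriers, was the hepatocyte gene of the set. It stood at 11420 CPM in hepatocytes high in Clu (53 cells), 15737 CPM in those low in albumin (400 cells) and 12418 CPM in those high in albumin (245 cells). Nearly every hepatocyte held it, 99.9% of 698 at a median of 3342 UMIs, and 98.9% with each cell thinned to 1000 UMIs. The background cells had it in 14.7% after thinning. All hepatocytes held 14126 CPM against 193.6 CPM in the background cells, 72.9-fold higher (67 to 79.6).

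Outside hepatocytes Fabp1 lay between 132 and 473 CPM in every class of at least 25 cells, around the background level of 193.6 CPM. The highest of these, above that level, was in neutrophils low in secondary granule transcripts, 473 CPM, against 132 CPM in neutrophils high in them, 3.59-fold (2.70 to 4.76; 53 and 166 cells). It rests on 98 UMIs spread unevenly: the median cell held 119 CPM, against 88.1 CPM in the background cells. The thinned share was 30.2% (18.3 to 44.3%), beside 14.7% in the background cells. The ratio of Fabp1 to albumin UMIs was not the same across classes: it was 0.334 in Kupffer cells, 0.513 in all macrophages, 2.28 in monocytes, 2.48 in mesothelial cells, 3.07 in plasma cells and 6.53 in granule-low neutrophils. In the hepatocytes themselves it was 0.621 (Clu-high), 9.17 (low albumin) and 1.17 (high albumin). The ratio thus varied between classes outside hepatocytes as it did between the hepatocyte classes, and the part of free RNA in it was not tested. Against Ttr, another hepatocyte gene, the ratio was steadier, at 1.46 in macrophages, 1.90 in mesothelial cells and 1.81 in plasma cells, beside 2.96 in low-albumin and 0.956 in high-albumin hepatocytes.

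Macrophages were split by Clec4f, Vsig4 and Marco (Kupffer cells, the resident macrophages of the liver sinusoids), by Gpnmb and Spp1 (genes of lipid-laden and scar-associated macrophages), by Mmp12 (an elastase) and by Cx3cr1 with MHC class II. The Gpnmb/Spp1 gate also set apart Trem2, a lipid receptor, at 1435 CPM against 218 CPM in Kupffer cells, and Cd9, a tetraspanin, at 470 CPM against 81.3 CPM. The carriers Fabp4 and Fabp5 marked the split most sharply. Fabp5 stood at 2004 CPM in Mmp12-high macrophages (247 cells), 1880.4 CPM in Gpnmb/Spp1 macrophages (492 cells), 705 CPM in macrophages that passed none of these subset gates (206 cells), 356 CPM in Cx3cr1 macrophages (77 cells), 266 CPM in Marco-low cells of the Clec4f/Vsig4 gate (109 cells) and 30.3 CPM in Kupffer cells (508 cells). Fabp4 stood at 1247 CPM in Mmp12-high, 675 CPM in Gpnmb/Spp1, 194 CPM in ungated, 58.2 CPM in Cx3cr1, 114 CPM in Marco-low and 19.7 CPM in Kupffer cells. Kupffer cells were the lowest of these subsets in both. Their Fabp5 level was near the 23.9 CPM of the background cells, which is not a floor for Fabp5. Their Fabp4 level was above its background of 3.99 CPM.

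The count over genes sets the scale for these differences. Between Gpnmb/Spp1 macrophages and Kupffer cells, 3 of the 10 members were at least 2-fold higher and 5 at least 2-fold lower, while 6.49% of 9134 genes were higher and 18.4% lower. Between Mmp12-high macrophages and Kupffer cells, 4 were higher and 5 lower, against 6.8% and 19.2% of 8725 genes. Between Cx3cr1 macrophages and Kupffer cells, 3 were higher and 3 lower, against 4.27% and 20.2% of 7467 genes. The 3 comparisons share the Kupffer cells and are not independent. The median log2 ratio of the members was -0.33, -0.39 and -0.48 in that order, and that of all genes -0.14, -0.13 and -0.15, so the medians hide a set that parts in both directions.

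**Figure D2:**
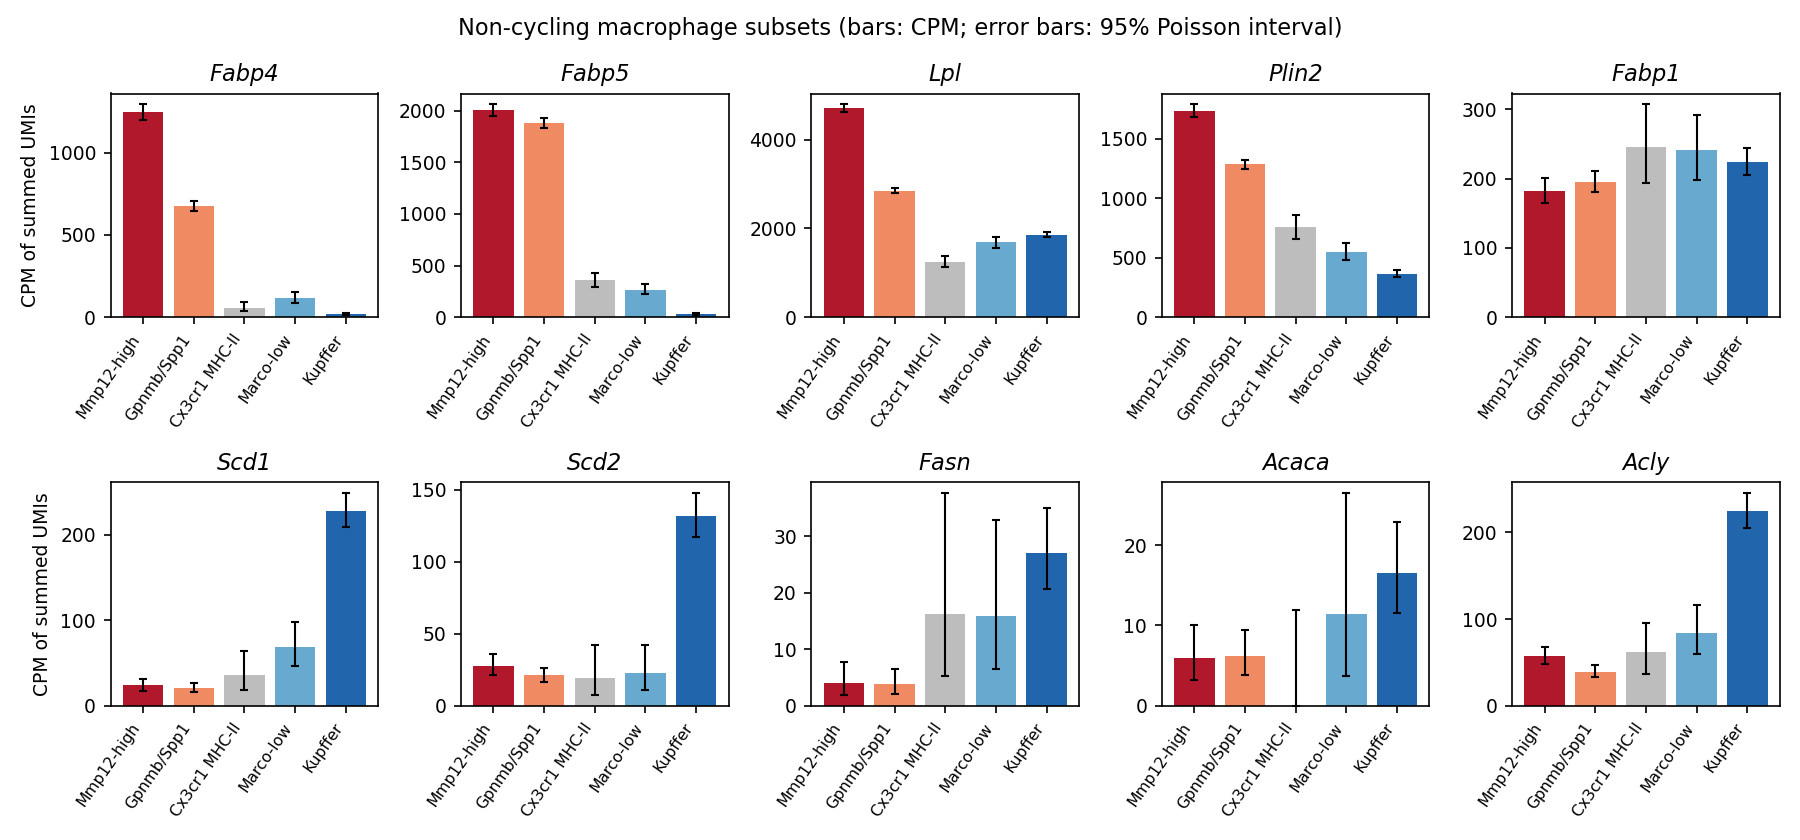
CPM of the 10 genes in 5 subsets of non-cycling macrophages; bars are CPM of summed UMIs, error bars 95% Poisson intervals, each panel on its own axis from 0. Fabp4, Fabp5 and Plin2 are highest in the Mmp12-high subset, and the synthesis genes Scd1, Scd2 and Acly are highest in Kupffer cells, at 228, 132 and 225 CPM.

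Against Kupffer cells, Fabp5 was 62.0-fold higher in Gpnmb/Spp1 macrophages (48.7 to 80.3) and 66.1-fold higher in Mmp12-high macrophages (51.9 to 85.7). Fabp4 was 34.2-fold higher (25.3 to 47.4) and 63.1-fold higher (46.8 to 87.5) in the same order. The Mmp12-high cells exceeded the Gpnmb/Spp1 cells in Fabp4 by 1.85-fold (1.75 to 1.95) and in Fabp5 by only 1.07-fold (1.03 to 1.11), a pair chosen after the values were seen. Marco-low cells held more of both carriers than Kupffer cells: Fabp5 was 8.79-fold higher (6.45 to 12.1) and Fabp4 5.77-fold higher (3.76 to 8.88). Cx3cr1 macrophages held 11.7-fold more Fabp5 (8.57 to 16.2) and 2.95-fold more Fabp4 (1.60 to 5.22).

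The share of cells with a UMI parted the Mmp12-high and Gpnmb/Spp1 macrophages from Kupffer cells as well. Fabp5 had a UMI in 94.3% of Mmp12-high, 95.9% of Gpnmb/Spp1 and 5.51% of Kupffer cells, at median depths of 8257, 6450.5 and 4067.5 UMIs. Thinned to 1000 UMIs per cell, these shares were 72.9%, 70.9% and 1.77%, beside 2.05% in the background cells. Fabp4 had thinned shares of 49.4%, 33.9% and 2.17%, beside 0.293% in the background cells. Kupffer cells were near the share of the background cells for Fabp5, for which these are not a floor, and above their share for Fabp4.

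Lpl and Plin2, the genes of the lipase and the droplet coat, were counted in all macrophage subsets and differed less. Lpl stood at 4708 CPM in Mmp12-high, 2852 CPM in Gpnmb/Spp1, 1242 CPM in Cx3cr1, 1683 CPM in Marco-low and 1855 CPM in Kupffer cells. It was 2.54-fold higher in Mmp12-high than in Kupffer cells (2.45 to 2.63), 1.54-fold higher in Gpnmb/Spp1 (1.48 to 1.59) and 1.49-fold lower in Cx3cr1 cells (1.35 to 1.66). Its thinned share was 90.3% in Mmp12-high, 78.5% in Gpnmb/Spp1 and 70.5% in Kupffer cells, beside 1.47% in the background cells. Lpl was therefore counted in most cells of all 3 subsets, Kupffer cells included.

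Plin2 stood at 1734 CPM in Mmp12-high, 1286 CPM in Gpnmb/Spp1, 754 CPM in Cx3cr1, 546 CPM in Marco-low and 366 CPM in Kupffer cells. The excess over Kupffer cells was 4.74-fold (4.39 to 5.12), 3.51-fold (3.26 to 3.79), 2.06-fold (1.77 to 2.39) and 1.49-fold (1.29 to 1.73) in the same order. The intervals of neighbouring subsets in this order did not overlap.

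The genes that build and desaturate fatty acids ran the other way. Scd1 stood at 23.6 CPM in Mmp12-high, 20.7 CPM in Gpnmb/Spp1, 35.6 CPM in Cx3cr1 and 68.3 CPM in Marco-low macrophages, against 228 CPM in Kupffer cells. In Gpnmb/Spp1 macrophages it was 11-fold lower than in Kupffer cells (8.58 to 14.4). That level is near the 19.9 CPM of the background cells, which is not a floor for Scd1. Scd2 stood at 27.7, 21.0, 19.4 and 22.8 CPM in the same subsets, against 132 CPM in Kupffer cells, and was 6.28-fold lower in Gpnmb/Spp1 macrophages (4.83 to 8.27). Its levels in these subsets outside Kupffer cells lay near the 25.0 CPM of the background cells and above the 2.24 CPM of all hepatocytes.

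Acly, which makes the acetyl-CoA, stood at 57.2 CPM in Mmp12-high and 39.3 CPM in Gpnmb/Spp1 macrophages, against 225 CPM in Kupffer cells, 5.73-fold lower in Gpnmb/Spp1 (4.72 to 6.99). Fasn, the synthase, had 13 UMIs in Gpnmb/Spp1 macrophages (3.84 CPM) and 59 in Kupffer cells (27.1 CPM), 7.05-fold lower (3.82 to 14.0). Acaca, the carboxylase, had 21 UMIs in Gpnmb/Spp1 macrophages (6.21 CPM) and 36 in Kupffer cells (16.5 CPM), 2.66-fold lower (1.51 to 4.80). All 5 synthesis genes were lower in Gpnmb/Spp1 and in Mmp12-high macrophages than in Kupffer cells, with intervals that exclude equality. In Mmp12-high macrophages the folds were 9.66 for Scd1, 6.63 for Fasn, 4.76 for Scd2, 3.93 for Acly and 2.80 for Acaca.

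In Cx3cr1 macrophages, Scd2 was 6.79-fold lower (3.08 to 18.7), Scd1 6.42-fold lower (3.55 to 12.9) and Acly 3.66-fold lower (2.32 to 6.13) than in Kupffer cells. Acaca had 0 UMIs in the 77 Cx3cr1 cells and 36 in Kupffer cells, at least 1.70-fold lower when a floor of 3 UMIs is set for the Cx3cr1 cells. Marco-low cells were lower in Scd2 by 5.79-fold (3.10 to 12.2), in Scd1 by 3.34-fold (2.31 to 5.01) and in Acly by 2.67-fold (1.91 to 3.84). In Fabp4, Fabp5, Plin2, Scd1 and Acly the Marco-low level thus lay between those of Gpnmb/Spp1 macrophages and Kupffer cells.

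Markers of other cells moved with this split. The 9 endothelial markers summed to 208 CPM in Gpnmb/Spp1 and 150 CPM in Mmp12-high macrophages, against 989 CPM in Kupffer cells, with 3 of them in at least 20% of Kupffer cells and 2 at 0. The 15 hepatocyte markers summed to 1098, 879 and 1851 CPM in the same order, with none at 0. Their part in the lower synthesis genes was not tested. Endothelial cells (17) held 0 UMIs of Scd1, Fasn and Acaca, with an upper limit of 68.6 CPM for each. That limit is above the Kupffer levels of Fasn (27.1 CPM) and Acaca (16.5 CPM). The same cells held 2 UMIs of Scd2 (37.2 CPM, 4.50 to 134) and 6 of Acly (111.5 CPM, 40.9 to 243). Scd2 was 58.9-fold higher in Kupffer cells than in all hepatocytes (28.2 to 148), which held it at 2.24 CPM.

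Joint detection in single cells was counted for all 4 storage-side genes, Fabp4, Fabp5, Lpl and Plin2, and for at least 2 of the 5 synthesis genes. The criteria for the 2 sets are not alike. Joint shares depend on the share of cells with each gene, and whether genes went together beyond that was not tested. With every cell thinned to 2000 UMIs, all 4 were detected in 137 of 247 Mmp12-high macrophages (55.5%, exact binomial interval 49.0 to 61.8%), in 187 of 492 Gpnmb/Spp1 macrophages (38.0%, 33.7 to 42.5%) and in 1 of 508 Kupffer cells (0.197%). No hepatocyte, monocyte or Cx3cr1 macrophage had all 4, out of 698, 291 and 77 cells. At least 2 of the 5 synthesis genes were detected in 1.21% of Mmp12-high macrophages, 1.42% of Gpnmb/Spp1 macrophages and 25.8% of Kupffer cells (22.0 to 29.8%).

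The gates are limits set on continuous values, and 147 non-cycling macrophages lay within 20% of the Gpnmb and Spp1 limit and 63 near the Mmp12 limit. Non-cycling macrophages were therefore also put into 6 bins by their Gpnmb and Spp1 UMIs per 10000 (0 to 3, 3 to 30, 30 to 75, 75 to 150, 150 to 300, and 300 or more). These held 479, 239, 209, 357, 310 and 45 cells, with median depths of 4003, 3521, 4261, 5944, 8169.5 and 10654 UMIs. Over these bins Fabp5 stood at 22.8, 152, 819, 1498, 2209 and 2810 CPM. Fabp4 stood at 25.8, 55.2, 230.2, 733, 986 and 1386 CPM. Both increased at each step.

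Plin2 stood at 349, 653, 900, 1284, 1545 and 1973 CPM over the same bins. Lpl stood at 1698, 1729, 2185, 2840, 3855 and 5725 CPM, and its first 2 bins were alike. Scd1 stood at 215, 111, 29.2, 18.7, 24.1 and 10.8 CPM. Scd1 was at its low level from the bin of 30 to 75 on, where Fabp4 stood at 230.2 CPM. Acly followed at 212, 133, 43.2, 46.6, 42.0 and 64.5 CPM, and Scd2 at 128, 57.3, 22.1, 27.0, 18.9 and 28.0 CPM. Fasn, at 27.3, 15.9, 5.03, 3.48, 4.09 and 2.15 CPM, rested on few UMIs. The Kupffer gene Clec4f, at 5768, 2870, 164, 56.6, 22.7 and 28.0 CPM, declined over the same 3 bins as Scd1, Scd2 and Acly. Median depth was lowest in the second bin and increased with each later one, and its part in these values was not tested.

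**Figure D3:**
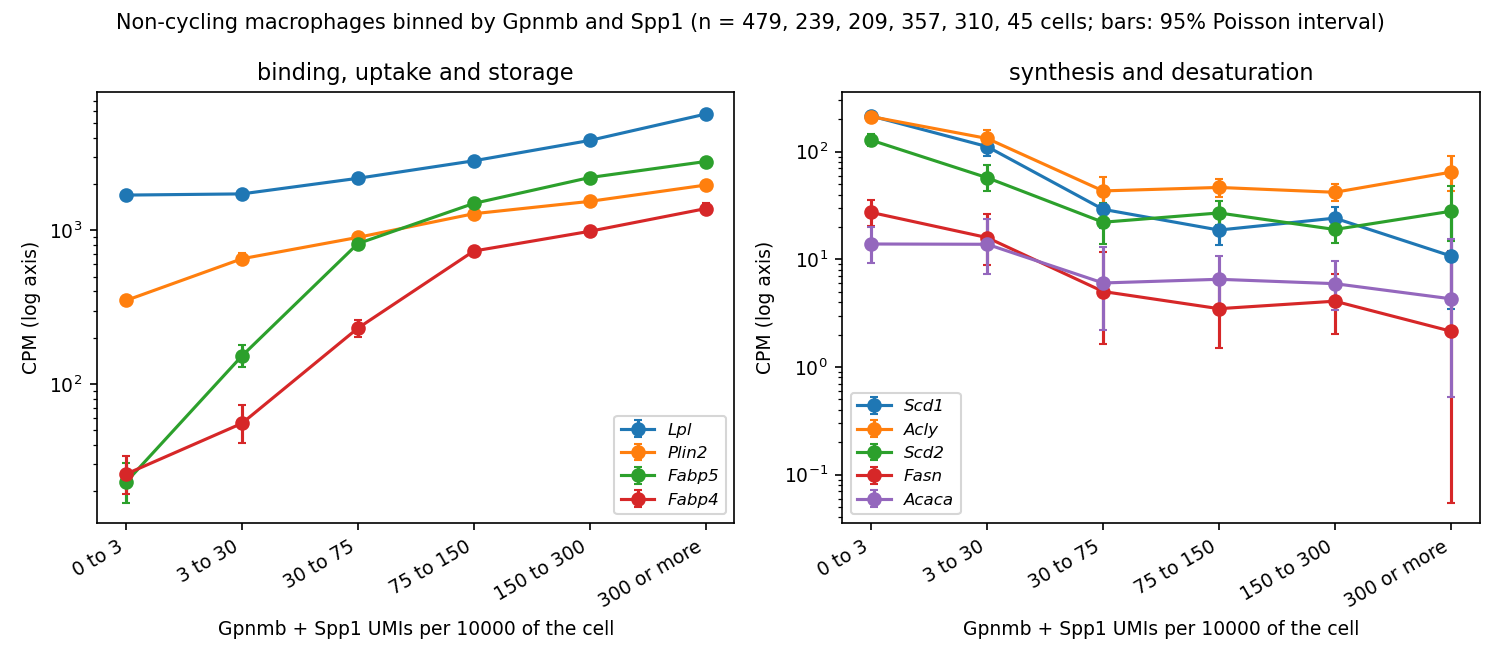
CPM (log axis) of 9 of the genes in non-cycling macrophages binned by Gpnmb and Spp1 UMIs per 10000 of the cell; points are CPM of summed UMIs, bars 95% Poisson intervals. Fabp5 spans 22.8 to 2810 CPM from the lowest to the highest bin, and Scd1 spans 215 to 10.8 CPM with most of the decline over the first 3 bins.

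Dividing macrophages were gated apart and showed the same contrast. Cycling cells of the Gpnmb/Spp1 gate (151 cells) held 813 CPM of Fabp4 against 16.2 CPM in cycling cells of the Kupffer gate (50 cells), 50.3-fold higher (19.6 to 185). Fabp5 had 3594 UMIs in these Gpnmb/Spp1-gated cells and 1 UMI in the Kupffer-gated ones, a ratio with an interval of 89.7 to 19757. Plin2 was 5.07-fold higher (3.93 to 6.67) and Lpl 2.45-fold higher (2.18 to 2.75). Scd1 was 8.62-fold lower (5.38 to 13.9), Acly 4.08-fold lower (2.66 to 6.16) and Scd2 3.92-fold lower (2.28 to 6.59).

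Cycling cells of the Gpnmb/Spp1 gate were close to the non-cycling Gpnmb/Spp1 macrophages in Fabp4, Fabp5 and Lpl. The groups were not gated alike: Mmp12-high and Kupffer cells were taken out of the non-cycling class and not out of the cycling cells. The part of this in the ratios was not tested. Fabp4 was 1.2-fold (1.13 to 1.29), Fabp5 1.08-fold (1.03 to 1.12) and Lpl 1.08-fold (1.04 to 1.12) that of non-cycling cells. Fasn, which had 19 and 13 UMIs, was 2.78-fold higher in the cycling cells (1.30 to 6.13). All 4 storage-side genes were detected in 42.4% of cycling Gpnmb/Spp1-gated cells and in 0 of 50 cycling Kupffer-gated cells after thinning to 2000 UMIs.

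Monocytes, the circulating cells from which macrophages can arise, were low in Fabp4, Fabp5 and Scd1 (291 cells). Against them all macrophages (1938 cells) were 41.8-fold higher in Fabp4 (26.4 to 70.5), 29.6-fold in Fabp5 (22.9 to 39.0) and 20.1-fold in Lpl (17.4 to 23.4). Plin2 was 3.36-fold higher (3.05 to 3.71), at 1067 CPM in macrophages against 318 CPM in monocytes. Acly differed by 1.12-fold, with an interval that includes equality (0.907 to 1.39), as did those of Fasn and Acaca. Plin2 in monocytes and Lpl, at 138 CPM, were both above the 34.4 and 19.6 CPM of the background cells.

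In hepatocytes the group behaved differently, and the desaturase Scd1 differed most. Hepatocytes were split at 50 albumin UMIs per 10000, a range rather than a type, since 67 cells lay within 20% of the limit. Between low-albumin and high-albumin hepatocytes, 8 members had enough UMIs, of which 0 were at least 2-fold higher and 2 at least 2-fold lower, against 2.46% and 9.12% of 6709 genes. Scd1 stood at 120 CPM in low-albumin cells against 488 CPM in high-albumin cells, 4.06-fold lower (3.45 to 4.80). Its thinned share was 10.5% in low-albumin and 27.3% in high-albumin cells, beside 3.23% in the background cells.

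Lpl, with 33 and 45 UMIs, stood at 19.2 CPM in low-albumin cells against 42.5 CPM in high-albumin cells, 2.21-fold lower (1.38 to 3.58). The low-albumin value is at the background level of 19.6 CPM. A higher minimum of class marker UMIs, with the albumin limit unchanged, put Lpl at a log2 ratio of 0.039 in place of -0.67. Leaving out the 5% deepest cells put it at -0.11. Macrophage markers summed to 156 CPM in low-albumin and 213 CPM in high-albumin hepatocytes, and their part in this difference was not tested.

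Fabp1 was 1.27-fold higher in low-albumin cells (1.24 to 1.29), and Plin2 differed by 1.00-fold (0.897 to 1.12), at 490 and 489 CPM. Acly, at 134 and 112 CPM, differed by 1.2-fold (0.959 to 1.51). Fasn was 1.29-fold lower with an interval that includes equality (0.803 to 2.06). Fabp1 and Plin2 therefore did not share the difference in albumin.

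Cycling and non-cycling hepatocytes were also taken apart. Scd1 was 5.17-fold lower in low-albumin than in high-albumin cells among cycling hepatocytes (4.11 to 6.57) and 3.02-fold lower among non-cycling ones (2.37 to 3.86). Fabp1 was 1.26-fold and 1.28-fold higher. Plin2 differed by 1.02-fold and 0.970-fold, both with intervals that include equality. Acly and Fasn were not alike. The Acly ratio was 0.853 among cycling cells (0.628 to 1.16) and 1.80 among non-cycling cells (1.25 to 2.64). Fasn was 1.99-fold lower among cycling cells (1.06 to 3.80), and its ratio was 1.48 among non-cycling cells (0.667 to 3.6).

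Over 5 bins of albumin UMIs per 10000 (0 to 10, 10 to 20, 20 to 50, 50 to 100, and 100 or more; 138, 118, 144, 129 and 116 cells), Scd1 stood at 72.1, 108, 182, 337 and 668 CPM. It increased at each step. Apoa1, a gene of the secreted plasma apolipoproteins, stood at 1577, 1621, 2372, 5322 and 8549 CPM, its first 2 bins overlapping in their intervals. Other hepatocyte genes did not increase at each step. Cyp2e1 stood at 323, 451, 458, 972 and 654 CPM and the lipogenic gene Thrsp at 95.1, 232, 429, 152 and 217 CPM, and Cps1 at 88.5, 83.1, 120, 185 and 237 CPM. Fabp1 stood at 17200, 16016, 13931, 12749 and 12020 CPM, a decrease at each step. Plin2 stood at 508, 487, 472, 531 and 437 CPM with no order. Fasn, at 11.5, 22.7, 43.4, 31.1 and 35.4 CPM, was lowest where albumin was lowest. The share of cycling cells was 60.1%, 50%, 49.3%, 51.2% and 66.4%, which follows no order.

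**Figure D4:**
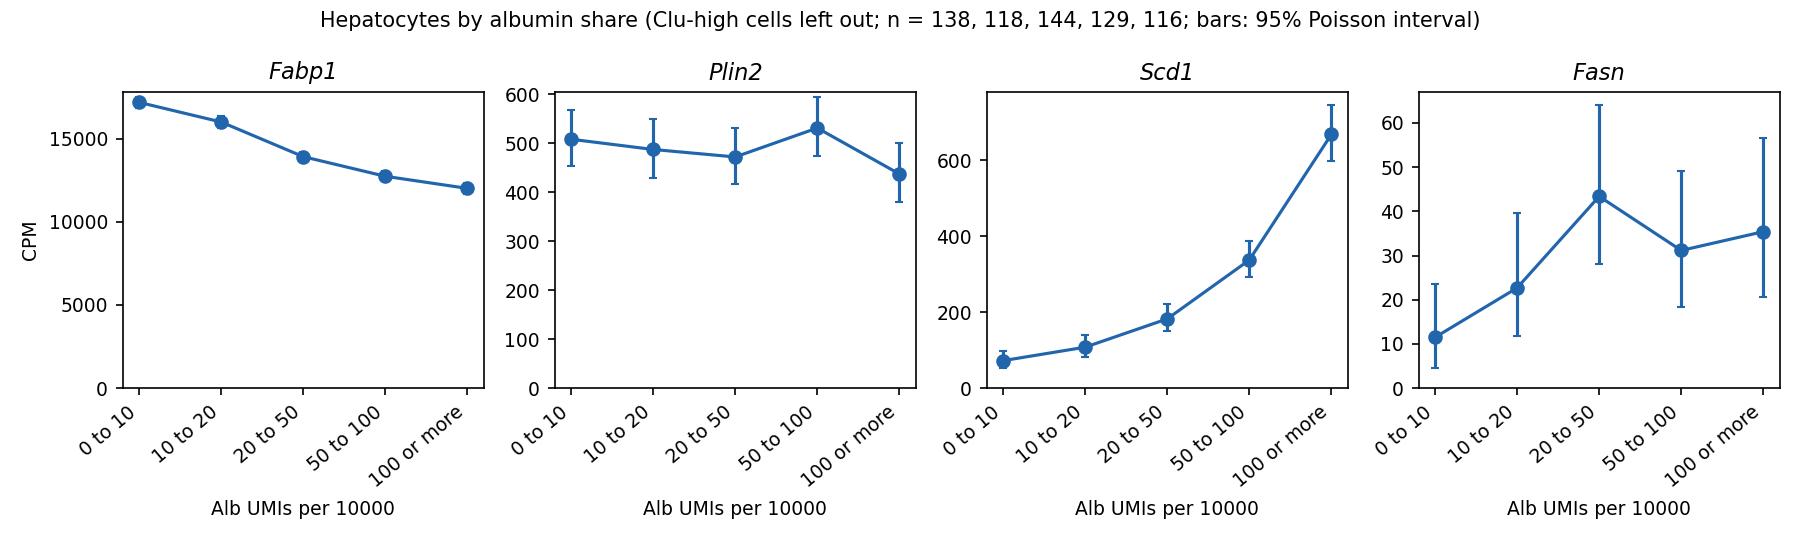
CPM of 4 genes in hepatocytes binned by albumin UMIs per 10000 of the cell, with Clu-high cells left out; points are CPM of summed UMIs, bars 95% Poisson intervals. Scd1 spans 72.1 to 668 CPM from the lowest to the highest bin, while Plin2 stays between 437 and 531 CPM.

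Hepatocytes high in Clu (53 cells), a class defined by the gene under study, were compared with the 645 others. 1 of 8 members measured was at least 2-fold higher and 1 at least 2-fold lower, against 11% and 14.6% of 7109 genes, a share near the background. Plin2 stood at 865 CPM in Clu-high cells against 489 CPM in the others, 1.77-fold higher (1.56 to 2.00). Scd1 stood at 455 against 260.3 CPM, 1.75-fold higher (1.46 to 2.08), and Lpl at 56.5 against 28.1 CPM, 2.01-fold higher (1.16 to 3.32) on 20 and 78 UMIs. The others are mostly low-albumin cells (400 cells), with Scd1 at 120 CPM and Lpl at 19.2 CPM. High-albumin cells held Scd1 at 488 CPM and Lpl at 42.5 CPM, with intervals that overlap those of Clu-high cells. Neither gene was thus set apart from high-albumin cells. Acly stood at 42.4 CPM in Clu-high cells against 125 CPM in the others, 2.96-fold lower (1.77 to 5.34), and Fabp1 was 1.27-fold lower (1.23 to 1.31). Acly in Clu-high hepatocytes was near the 42.8 CPM of the background cells, which is not a floor for Acly.

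Kupffer cells and hepatocytes met in the desaturase Scd1 and parted in Scd2. Scd1 stood at 228 CPM in Kupffer cells against 282 CPM in all hepatocytes, 1.24-fold lower (1.11 to 1.38). Scd2 had 287 UMIs in Kupffer cells and 7 in hepatocytes. Acly was 1.94-fold higher in Kupffer cells (1.69 to 2.23), Fasn differed by 0.986-fold (0.695 to 1.39), and Lpl was 59.2-fold higher (48.5 to 73.1). Scd1 was therefore counted in both classes, and Scd2 nearly alone in Kupffer cells of the pair.

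Mesothelial cells, which line the liver surface, were low in the storage-side genes and not in the synthase. Of 10 members, 1 was at least 2-fold higher and 5 at least 2-fold lower in the 491 mesothelial cells than in the 4125 other cells, against 21.7% and 20.6% of 13755 genes. Fasn stood at 28.5 CPM in mesothelial cells against 13.5 CPM in the others, 2.11-fold higher (1.69 to 2.61), and Scd2 at 57.9 against 33.9 CPM, 1.71-fold higher (1.47 to 1.98). The other cells include macrophages and neutrophils low in Fasn, and hepatocytes, at 27.5 CPM, and Kupffer cells, at 27.1 CPM, held it at a level close to that of mesothelial cells. The Fasn ratio was just past 2-fold, and it was under 2-fold with each cell weighted equally, with stricter gates or with mitochondrial and leading hepatocyte genes out of the total. Lpl stood at 15.8 CPM in mesothelial cells against 1438 CPM in the others, 90.9-fold lower (71.3 to 118), and at no more than the background level. Fabp1, Fabp4, Plin2 and Fabp5 were 11.8-fold, 5.93-fold, 3.29-fold and 3.19-fold lower. With each cell weighted equally, the log2 ratio was -1.45 in place of -2.19 for Fabp4 and -0.92 in place of -1.59 for Fabp5. The other cells include the macrophages, which held most UMIs of the storage-side genes. Fabp5, at 218 CPM in mesothelial cells, was above hepatocytes (53.7 CPM), monocytes (43.8 CPM) and Kupffer cells (30.3 CPM). Fabp4, at 51.9 CPM, was above the same classes (7.99, 13.6 and 19.7 CPM). Plin2, at 204 CPM, was under them (532, 318 and 366 CPM).

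Within the mesothelial class, cells positive for Enpp2, the gene of the lysophospholipase autotaxin, held more of the carriers. Of 9 members measured, 2 were at least 2-fold higher and 0 lower in Enpp2-positive cells (79) than in Enpp2-low cells (305), against 5.85% and 10.2% of 8588 genes. Fabp4 stood at 193 CPM in Enpp2-positive cells against 35.3 CPM in Enpp2-low cells, 5.48-fold higher (4.03 to 7.46). Fabp5 stood at 443 against 215 CPM, 2.06-fold higher (1.75 to 2.43). Scd1 stood at 95.6 against 49.2 CPM, 1.94-fold higher (1.34 to 2.77). Plin2 and Lpl, at 1.11-fold (0.882 to 1.39) and 1.58-fold (0.725 to 3.15), had intervals that include equality. The Lpl value, on 11 and 37 UMIs, depends on the gates: its log2 ratio was 0.32 as reported, 2.12 with stricter gates and 1.87 with mixed cells kept.

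Markers of cells that carry Fabp4 elsewhere were compared in the same 2 groups. The 10 macrophage markers summed to 226 CPM in Enpp2-positive against 186 CPM in Enpp2-low cells, and the 9 endothelial markers to 26.1 against 84.9 CPM. Adipocyte markers had 0 UMIs in both. The part of such cells or of free RNA in the Fabp4 difference was not tested. The thinned share of Fabp4 was 13.9% in Enpp2-positive and 3.93% in Enpp2-low cells, beside 0.293% in the background cells.

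**Figure D5:**
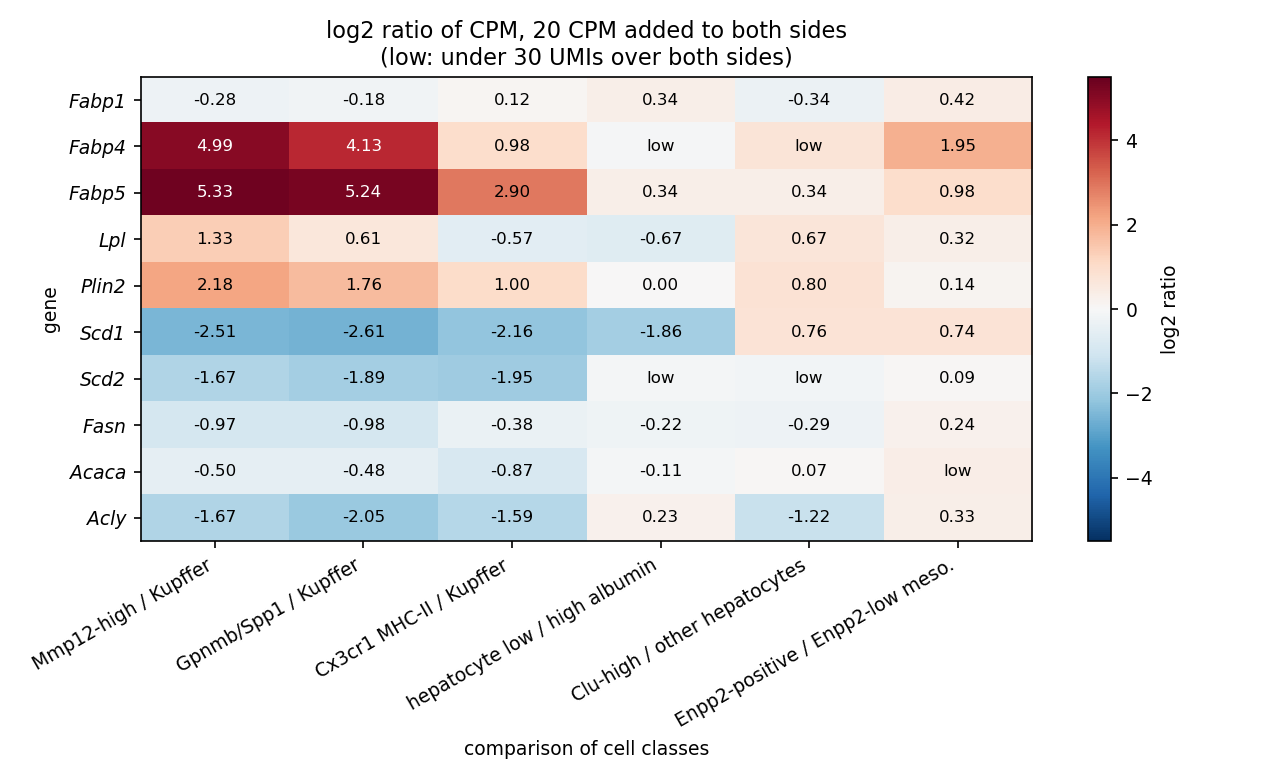
Log2 ratio of CPM, with 20 CPM added to both sides, for the 10 genes in 6 comparisons of cell classes; colour and number give the ratio, and tiles marked low had under 30 UMIs over both sides. Fabp4 reaches 4.13 and Fabp5 5.24 in Gpnmb/Spp1 macrophages over Kupffer cells, and Scd1 is -2.61 there and -1.86 in low-albumin over high-albumin hepatocytes.

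Small classes gave further levels. The 17 endothelial cells held Fabp4 at 3439 CPM and Fabp5 at 502 CPM, above the level of any other class for Fabp4, with a Fabp4 UMI in 88.2% of them. Granulocyte-monocyte progenitors (195 cells, median 10223 UMIs) held Fabp5 at 143 CPM, Fasn at 27.1 CPM and Scd1 at 3.22 CPM. Fasn in these progenitors was thus as high as in Kupffer cells, at 27.1 CPM. Levels in classes under 50 cells, such as T/NK cells (45) and dendritic cells (29), rest on few UMIs for most genes, though Fabp4 in endothelial cells rests on 185. Of the 21 steps between neighbouring classes in each gene's order of levels, intervals did not overlap at 6 for Plin2, 5 each for Lpl and Fabp5, 4 for Fabp4, 3 for Fabp1, 2 for Scd1, 1 each for Scd2 and Acly and 0 for Fasn and Acaca. The order of most neighbouring classes is therefore within counting error.

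The genes whose levels followed each member most closely over the 22 classes were found by Pearson's r on log2(CPM + 10), as a description over classes that share 1 matrix. Nrn1 and Apoa2 (r = 0.986 each) followed Fabp1, and Fabp4 and Fabp5 followed each other (0.933). Slc37a2 (0.971) and Hmox1 (0.966), the haem oxygenase, followed Lpl, and Rab14 (0.892) followed Plin2. Slc22a18 (0.905) followed Scd1, Ddx17 (0.874) Scd2, Ggct (0.874) Fasn, Senp5 (0.868) Acaca and Pts (0.698) Acly. Among members, r was 0.755 between Fabp4 and Lpl, 0.709 between Fabp1 and Scd1, 0.685 between Lpl and Plin2, and -0.204 between Scd1 and Scd2. The levels of the desaturases thus did not follow each other over all classes, although Kupffer and mesothelial cells held both.

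The 10 lists of 120 related genes set these members in their pathway. Between Gpnmb/Spp1 macrophages and Kupffer cells, of genes with enough UMIs, 0 of 7 other genes of synthesis, elongation and desaturation were at least 2-fold higher and 3 lower. Of 14 oxidation genes, 0 were higher and 5 lower, and of 5 droplet genes 2 were higher and 0 lower. Of 10 lipid-sensing transcription factors 1 was higher and 4 lower, against 6.49% and 18.4% of all genes. Lists of uptake (6 measured) and of binding proteins (5 measured) had 2 and 1 higher and 2 and 1 lower.

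Among carriers outside the set, Fabp3, the heart form, had 84 UMIs in Gpnmb/Spp1 macrophages and 0 in Kupffer cells, at least 18.0-fold higher with a floor of 3 UMIs for the Kupffer cells. Fabp7, the brain form, ran the other way, at 429 CPM in Gpnmb/Spp1 macrophages against 1530 CPM in Kupffer cells, 3.57-fold lower (3.35 to 3.80). Fabp7 was thus higher in Kupffer cells, where Fabp5 and Fabp4 were lowest. Cd36, the fatty acid translocase, stood at 1348 CPM in Gpnmb/Spp1 macrophages and 2493 CPM in Mmp12-high ones, against 617 CPM in Kupffer cells, 2.19-fold (2.06 to 2.33) and 4.04-fold (3.81 to 4.29) higher. Angptl4, an inhibitor of LPL, stood at 25.1 and 41.8 CPM in the same subsets against 2.76 CPM, 9.12-fold (4.02 to 25.5) and 15.2-fold (6.71 to 42.4) higher.

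The regulators parted as well. Nr1h3, which encodes the sterol receptor LXR alpha, stood at 164 CPM in Gpnmb/Spp1 macrophages against 667 CPM in Kupffer cells, 4.06-fold lower (3.68 to 4.49). Srebf1, a transcription factor of fatty acid synthesis, was 2.68-fold lower (1.91 to 3.81) on 55 and 95 UMIs, and Rxra, the partner of LXR and PPAR receptors, 3.58-fold lower (2.96 to 4.34). Pparg, the receptor that drives Fabp4 in adipocytes, was 2.51-fold higher (1.74 to 3.68). In Cx3cr1 macrophages Pparg was 3.15-fold higher (1.67 to 5.72) and Nr1h3 2.95-fold lower (2.32 to 3.80) than in Kupffer cells.

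In low-albumin against high-albumin hepatocytes, 4 of 11 other synthesis genes, 3 of 6 uptake genes and 2 of 6 droplet genes were at least 2-fold lower and 0 higher, against 9.12% of all genes lower. Acsl5, which activates fatty acids, was 6.09-fold lower (4.12 to 9.24), and Slc27a5, the bile acid and fatty acid ligase of the liver, 5.84-fold lower (3.71 to 9.49). Srebf1 was 2.88-fold lower (1.57 to 5.45) on 18 and 32 UMIs. Of 14 oxidation genes, 0 passed 2-fold in either direction. Idi1, of cholesterol synthesis, was 7.65-fold higher (3.11 to 24.4) on 62 and 5 UMIs.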

How the data were processed

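The authors deposited raw UMI counts per gene and cell for the matrix labelled CluKO, per the file headers and values, and the build was GRCm38, as named in the submitters' processing notes. The aligner, the counter and the rule for calling barcodes cells were not given in the sources used here. Kept cells had at least 200 genes and no more than 20% mitochondrial counts (4616 of 4694), and 128 that passed several marker gates were left out, which was the treatment of doublets. UMIs of a symbol on several identifiers (118 symbols) were summed. Counts were summed per class and scaled to CPM, with exact Poisson intervals for levels, conditional binomial ones for ratios and exact Clopper-Pearson ones for shares, at 95% (Python 3.11.15, numpy 2.4.6, scipy 1.17.1, pandas 2.3.3). UMIs remove PCR copies, yet the intervals cover counting error only.

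In 7 comparisons of classes, genes with at least 30 UMIs over both sides were counted when at least 2-fold apart, with a side at 0 set to a floor of 3 UMIs. Log2 ratios carry an offset of 20 CPM. Pathway genes were named as the 3 furthest in each direction at most, beside a fixed few such as Cd36, Angptl4, Pparg, Nr1h3 and Srebf1. Wild-type matrices were not used here. The design compared wild-type times and CluKO with wild type, and neither comparison was made, since the rows of the wild-type matrices were not paired with gene names. The members and lists were chosen with earlier results of these data known, and the limits of the gates and the further pairs (cycling, Marco-low, Mmp12-high over Gpnmb/Spp1, neutrophils, monocytes, Kupffer cells over hepatocytes) were set after the data were seen. Calculations were tested on simulated counts.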

Additional observations from a re-analysis of the deposited data

How the results depend on the processing

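No paired analysis was possible because the CluKO samples share 1 matrix without sample names and no test was made. Stricter gates raised the minimum of class marker UMIs and left the limits that split a class, such as albumin, Enpp2 and Mmp12, as they were. Among log2 ratios of members, 383 stayed within the counting interval, 36 moved and 1, past 2-fold as reported, reversed: Lpl in low-albumin over high-albumin hepatocytes was 0.039 with stricter gates (-0.67 as reported). Counts of genes at least 2-fold apart moved with the minimum count. At 100 UMIs they were 1298 for Gpnmb/Spp1 (2272 as reported), 1267 for Mmp12-high (2265) and 742 for Cx3cr1 macrophages over Kupffer cells (1824), 320 for low-albumin over high-albumin hepatocytes (777), 816 for Clu-high over other hepatocytes (1823) and 518 for Enpp2-positive over Enpp2-low mesothelial cells (1375). At 10 UMIs they were 1694 for low-albumin hepatocytes and 2275 for Enpp2-positive cells. At 100 UMIs, 3 members in place of 5 were lower in Gpnmb/Spp1 and in Mmp12-high macrophages. Moved by over 1.5-fold were Fabp5 in Clu-high hepatocytes (-0.28 without the 5% deepest cells, 0.34 as reported, a change of sign in a ratio whose interval includes equality), Lpl in Enpp2-positive cells (2.12 with stricter gates and 1.87 with mixed cells, 0.32 as reported) and, with cells weighted equally, Fabp4 (-1.45; -2.19) and Fabp5 (-0.92; -1.59) in mesothelial cells over the others. The cause was not tested. Of 777 genes called between low-albumin and high-albumin hepatocytes, 21.2% were higher, against 32.6% at 10 UMIs. Fasn and Acaca, with 449 and 223 UMIs in all, are limited by depth in every class.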

Other observations

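Pathway genes of 2 further classes were not described above. In Clu-high hepatocytes over the others, 4 of 8 cholesterol synthesis genes were at least 2-fold higher and 0 lower, with a median log2 ratio of 0.79 against -0.14 over all genes, and 11% of all genes were higher. Angptl8, which encodes a hormone of liver and fat, stood at 220.4 CPM in Clu-high cells against 31.0 CPM in the others, 7.11-fold higher (5.17 to 9.77). Angptl4 was 6.63-fold higher (4.04 to 10.8) and Acsl5 6.14-fold higher (4.81 to 7.83). Thrsp, a lipogenic gene of the liver, was 3.77-fold lower (2.44 to 6.13), and Lpin1, a phosphatidate phosphatase, had 0 UMIs in Clu-high cells and 94 in the others, at least 4.00-fold lower with a floor of 3 UMIs for the Clu-high cells. The class holds 53 cells, and 36 cells lay within 20% of its limit.

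In mesothelial cells over the others, 6 of 13 other synthesis genes were at least 2-fold higher and 3 lower, against 21.7% and 20.6% of all genes. Angptl4 stood at 242 CPM in mesothelial cells against 18.9 CPM in the others, 12.8-fold higher (11.4 to 14.3), beside an Lpl level of 15.8 CPM there. Mgll, which cleaves monoglycerides, was 5.43-fold higher (4.76 to 6.19) and Cd36 47.6-fold lower (37.0 to 62.2). In Enpp2-positive over Enpp2-low mesothelial cells, Lipa, the lysosomal acid lipase, was 2.75-fold higher (2.12 to 3.54), and Pnpla2, the triglyceride lipase of lipid droplets, 2.01-fold lower (1.02 to 4.54) on 9 and 96 UMIs.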
